A study of Mus musculus with 6 samples.

Results

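The BCL2 family genes described here were 10 genes of the mitochondrial cell death pathway, chosen by their symbols from the 56748 genes of the count table. They were the pro-survival genes Mcl1, Bcl2l1, Bcl2, Bcl2a1b and Bcl2a1d, the effectors Bax and Bak1, and the BH3-only genes Bid, Bcl2l11 and Pmaip1. RNA sequencing was carried out on primary osteocytes that came from limb bones of C57BL/6 mice aged 7 weeks, in 3 WT libraries and 3 libraries labelled Gsdmd-deficient (cKO). The cKO mice carried Gsdmd fl/fl alleles and DMP1-Cre, in which the dentin matrix protein 1 promoter drives Cre, so that deletion is directed to cells in which this promoter is active. The cells behind all 6 libraries had been cultured for 7 days. Stimulation began with 3 h of lipopolysaccharide (LPS) at 10 ng/ml. Aluminum hydroxide at 20 µg/ml was then given for 3 h. Unstimulated cells were not analysed here, so the values compare genotypes under stimulation and do not give the effect of the stimuli. Total counts were 45128793, 49734046 and 39590527 in WT 1 to 3, and 41645500, 39566835 and 45161392 in cKO 1 to 3.

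Gsdmd, the gene targeted in the cKO mice, gave 609, 699 and 549 counts in WT and 885, 937 and 1045 in the libraries labelled cKO. Its log2 fold change was 0.69 (SE 0.083), which goes against the label, although a count over the whole gene does not resolve the deleted exons. The cKO libraries are therefore named by their label throughout. Xist gave 4, 0 and 2 counts in WT against 48762, 44817 and 51216 in the cKO-labelled libraries, while the Y-linked genes Ddx3y, Eif2s3y, Uty and Kdm5d had 0 counts in all 3 cKO-labelled libraries. These Y-linked genes were at least 1505-, 500-, 477- and 435-fold lower there, against a floor of 3 counts per library. Sex and genotype cannot be told apart in these 6 libraries. None of the 10 members lies on a sex chromosome.

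Markers of cell types were also read before the family. The defining markers of osteocytes were near absent in both groups: Sost had 0 counts in every library, Mepe 0 to 2, Dmp1 0 to 6 and Phex 2 to 22. The 5 osteocyte markers, of which Fgf23 was the most abundant in WT and Phex in cKO-labelled libraries, summed to 0.800, 0.766 and 0.412 counts per 1000000 scaled by the trimmed mean of M-values (TMM), written CPM, in WT and 0.618, 0.201 and 0.220 in cKO-labelled libraries. Macrophage markers moved with the genotype label. All 15 tested genes of the 16 on that list were higher in cKO-labelled libraries (median log2 fold change 3.15), where 20.1% of all tested genes were. Cx3cr1 was too low to be tested. The summed level of the 16 genes was 1275, 1384 and 1431 CPM in WT and 7068, 7359 and 7401 CPM in cKO-labelled libraries. Lyz2 was the most abundant. No macrophage marker was at 3 or fewer counts in all libraries. The part of these cells in the differences described next was not tested, and in bulk RNA fewer cells of a type and less RNA per cell cannot be told apart.

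Among other cell types, 3 of 3 tested neutrophil markers were higher in cKO-labelled libraries, with Camp the most abundant, whereas S100a9, Ly6g, Mpo, Ngp and Cxcr2 were at 3 or fewer counts in every library. No marker of mast cells, lymphocytes or erythroid cells passed the filter on low counts. Of these, Cpa3, Mcpt4, Tpsb2, Fcer1a, Cd79a, Ms4a1, Cd3e, Cd3d, Cd8a, Nkg7, Hba-a1 and Hbb-bs had at most 3 counts in any library. Osteoblast markers were higher for 2 and lower for 4 of 6 tested genes, and the most abundant, Spp1, was lower (log2 fold change -0.64). Osteoclast markers were higher for 1 and lower for 1 of 4, with Calcr at the floor. Ctsk, the most abundant of them, was the lower one (-0.41). Chondrocyte markers were higher for 3 and lower for 1 of 4. The lower one was Col2a1 (-0.84), the most abundant. The summed chondrocyte level was 1492 CPM in WT and 895 CPM in cKO-labelled libraries (means). Fibroblast markers, led by Col3a1, which was higher (0.13), were higher for 3 and lower for 3 of 6. Shares over all tested genes were 20.1% higher and 19.2% lower. Endothelial markers were higher for 1 and lower for 3 of 4, with Kdr the most abundant in cKO-labelled libraries and Cdh5 in WT, and smooth muscle markers, led by Acta2, were lower for 3 of 4. None of the 5 proliferation markers, led by Top2a, passed the edgeR test. One of these (1 of 5) was lower at an unadjusted p below 0.05, and DESeq2 and limma-voom called 0.

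Proteins of the BCL2 family decide whether the outer mitochondrial membrane is opened during apoptosis. BAX and BAK1 form the pores that release cytochrome c, pro-survival members such as BCL2, BCL-XL, MCL1 and A1 hold them in check, and BH3-only proteins bind the pro-survival members or activate the effectors. MCL1 is a short-lived protein that must be made continuously, and NOXA, the product of Pmaip1, binds mainly to MCL1 and A1. In bone, BCL2 and BCL-XL are known as survival factors of osteoblasts.

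All 10 members passed the filter on low counts. Under the quasi-likelihood test of edgeR, with p-values adjusted by Benjamini-Hochberg over 17146 genes, 5 members were higher and 2 were lower in cKO-labelled libraries at an adjusted p below 0.05, and 3 were not called. Over all tested genes, 20.1% were higher (3445 genes) and 19.2% were lower (3285 genes). Upper-quartile scaling in place of TMM changed this split to 2799 higher and 4294 lower. With the added limit of a log2 fold change of at least 1 in size, 3 members were higher and 1 was lower, where 6.56% and 4.64% of all tested genes were. In 5 members all cKO-labelled libraries lay above all WT libraries and in 2 all lay below, compared with 25.3% and 23.9% of tested genes. The median log2 fold change was 0.23 over the members and 0.01 over all tested genes, whose lower and upper quartiles were -0.22 and 0.27. Nothing in the labels says that the libraries of a group came from separate animals or cultures, so p-values measure only the spread between these libraries, which may be technical.

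**Figure D1:**
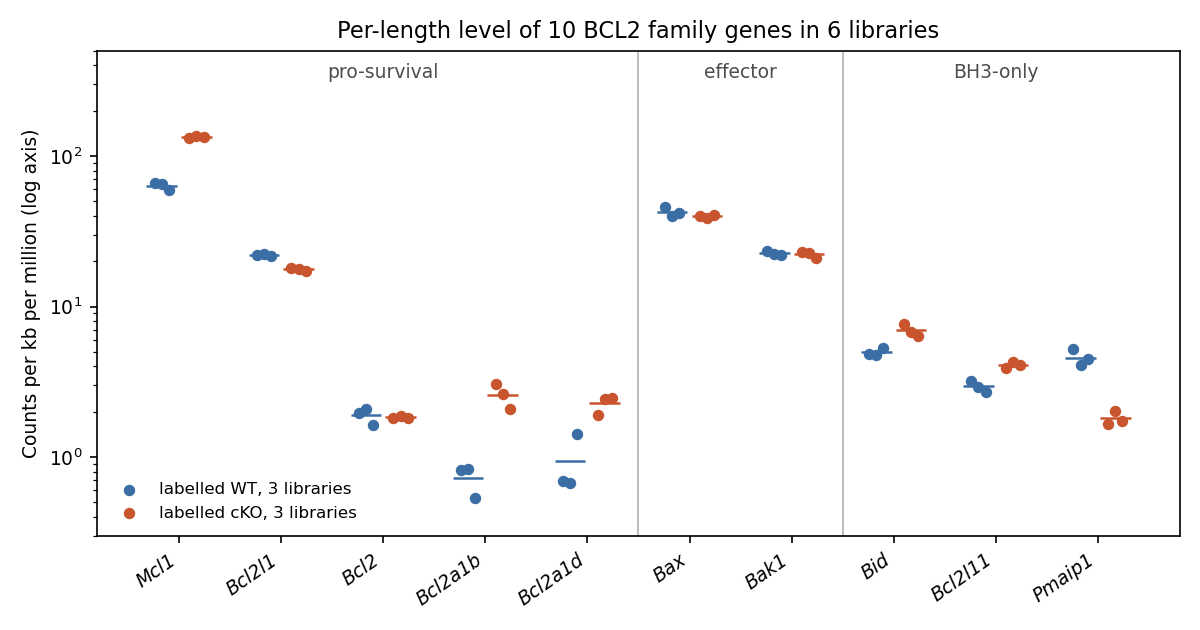
Level of each member in counts per kilobase of gene length per 1000000 (log axis), with 1 point per library, blue for WT and orange for cKO-labelled libraries, and a line at each mean. Mcl1 was the highest in both groups, at means of 63.6 and 134, and the points of Bcl2, Bax and Bak1 overlapped between groups.

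Mcl1 encodes a short-lived pro-survival protein. Its level was 225, 224 and 203 CPM in WT and 449, 463 and 458 CPM in cKO-labelled libraries. The lowest cKO-labelled library lay far above the highest WT library, and the 3 libraries of each group were close together. The mean was 217 ± 12.1 CPM in WT and 457 ± 7.25 CPM in cKO-labelled libraries (SD, n = 3 each), a 2.10-fold difference. The log2 fold change was 1.07 (SE 0.044; edgeR quasi-likelihood test, Benjamini-Hochberg adjusted p = 1.39e-12). The gene lies on chr3:95566099-95570487 (GRCm39, plus strand).

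Bcl2a1b and Bcl2a1d are copies of the gene for A1, a pro-survival protein known mainly from blood cells. Both were sparsely covered. Bcl2a1b gave 30, 34 and 17 counts in WT and 105, 85 and 77 counts in cKO-labelled libraries. Every cKO-labelled library exceeded every WT library, although cKO 1 to 3 differed more among themselves, relative to their mean, than they did for Mcl1. The level was 0.597 ± 0.138 CPM in WT and 2.11 ± 0.401 CPM in cKO-labelled libraries (SD, n = 3 each). The log2 fold change was 1.81 (SE 0.32; edgeR quasi-likelihood test, Benjamini-Hochberg adjusted p = 0.000187), a 3.50-fold difference. Bcl2a1d gave 27, 29 and 48 counts in WT and 69, 84 and 97 counts in cKO-labelled libraries. WT 3 stood above the other WT libraries, but the groups did not overlap. The level was 0.807 ± 0.372 CPM in WT and 1.96 ± 0.28 CPM in cKO-labelled libraries (SD, n = 3 each), with a log2 fold change of 1.30 (SE 0.34; edgeR quasi-likelihood test, Benjamini-Hochberg adjusted p = 0.00531).

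The counts of these copies are uncertain one by one, because the genes are near-identical and the sources name both featureCounts and RSEM, which treat reads shared by copies differently. All lie on chromosome 9, and each of their main transcripts has 2 exons. Of the 150-base windows of each transcript, 41.7% in Bcl2a1b, 30.5% in Bcl2a1d and 28.2% in Bcl2a1a occur base for base in a transcript of another gene. That gene is another copy or Gm29094, which overlaps Bcl2a1b by 8449 bases on the same strand and had 0 counts in all libraries. Those 0 counts do not show whether Bcl2a1b lost reads in the overlap. The first coding exons of the 3 copies hold 420 coding bases each. Of these, 5 differ between Bcl2a1b and Bcl2a1d, 10 between Bcl2a1a and Bcl2a1b, and 7 between Bcl2a1a and Bcl2a1d. The longest run that is the same in all 3 copies spans 217 bases, more than the read length. The first 90 coding bases are shown because they hold 6 of the 11 positions at which the copies are not all equal. Sequences are from GENCODE on GRCm39, 5′ to 3′ along the coding strand, within coding exon 1, and capitals mark the positions that differ between copies. They span chr9:88839104-88839193 (plus strand) in Bcl2a1a, chr9:89081413-89081502 (plus strand) in Bcl2a1b and chr9:88613683-88613772 (minus strand) in Bcl2a1d.
Bcl2a1a: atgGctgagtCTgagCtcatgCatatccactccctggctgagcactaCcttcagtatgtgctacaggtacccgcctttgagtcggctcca
Bcl2a1b: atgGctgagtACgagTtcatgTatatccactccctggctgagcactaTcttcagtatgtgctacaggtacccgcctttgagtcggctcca
Bcl2a1d: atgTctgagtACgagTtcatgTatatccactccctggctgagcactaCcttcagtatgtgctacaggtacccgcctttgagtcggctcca

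Read as a single feature, Bcl2a1a, Bcl2a1b and Bcl2a1d together gave 69, 71 and 93 counts in WT and 190, 199 and 203 counts in cKO-labelled libraries. This sum, chosen after seeing the data, does not depend on how counted reads were divided between these copies. Any reads left out for matching several copies would be missing from the sum too. Every cKO-labelled library lay above every WT library. Their joint level was 1.79 ± 0.530 CPM in WT and 4.66 ± 0.297 CPM in cKO-labelled libraries (SD, n = 3 each). The summed log2 fold change was 1.39 (SE 0.22; edgeR quasi-likelihood test, Benjamini-Hochberg adjusted p = 5.88e-05), a 2.63-fold difference. Bcl2a1a alone had 12, 8 and 28 counts in WT and 16, 30 and 29 in cKO-labelled libraries, which overlapped, and was not called (log2 fold change 0.65, SE 0.56). The Bcl2a1a log2 fold change was 1.46 without WT 3 and 0.26 without WT 2, so single libraries moved it far. Bcl2a1c, a further gene of the group, had 0 counts in all 6 libraries.

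Bcl2l1, the gene of the pro-survival protein BCL-XL, went the other way. Its level was 101, 102 and 98.9 CPM in WT and 82.5, 81.5 and 78.9 CPM in cKO-labelled libraries. All cKO-labelled libraries lay below all WT libraries, and the spread within each group was small. The mean was 100.6 ± 1.553 CPM in WT and 81.0 ± 1.82 CPM in cKO-labelled libraries (SD, n = 3 each). Bcl2l1 fell by 0.31 on the log2 scale (SE 0.046; edgeR quasi-likelihood test, Benjamini-Hochberg adjusted p = 2.38e-05). The gene is annotated at chr2:152622588-152673648 on the minus strand.

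Bcl2, the founding member of the family and also a pro-survival gene, was at 17.9, 19.1 and 14.9 CPM in WT and 16.8, 17.2 and 16.6 CPM in cKO-labelled libraries. The cKO-labelled values lay inside the WT range, with WT 3 the lowest of the 6 libraries. Its log2 fold change of -0.04 (SE 0.095) did not pass the test (edgeR quasi-likelihood test, Benjamini-Hochberg adjusted p = 0.773), and its sign changed when WT 2 was left out (0.02). The gene spans chr1:106465908-106642004 on the minus strand.

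Neither effector was called. Bax, which moves from the cytosol to mitochondria when activated, was at 72.2, 63.2 and 65.6 CPM in WT and 62.9, 61.5 and 64.0 CPM in cKO-labelled libraries. WT 1 was the highest library and the others overlapped. Its log2 fold change was -0.09 (SE 0.055; edgeR quasi-likelihood test, Benjamini-Hochberg adjusted p = 0.204), and it ranged from -0.14 to -0.05 when 1 library was left out, with the smallest size without WT 1. With upper-quartile scaling in place of TMM, Bax was called lower at -0.16 (edgeR quasi-likelihood test, Benjamini-Hochberg adjusted p = 0.025). Bak1, which resides in the outer mitochondrial membrane, was at 56.3, 53.4 and 52.8 CPM in WT and 55.0, 54.9 and 50.5 CPM in cKO-labelled libraries. These ranges overlapped, with cKO 3 the lowest and WT 1 the highest. The log2 fold change of Bak1 was -0.02 (SE 0.054; edgeR quasi-likelihood test, Benjamini-Hochberg adjusted p = 0.819), and its sign changed with scaling by library size alone (0.0022) and without cKO 3 (0.02). At an unadjusted p below 0.05, 0 of these 2 effectors passed in edgeR, and DESeq2 and limma-voom also called 0. A p that misses the threshold does not show that levels were equal. Bax lies on chr7:45111121-45116322 and Bak1 on chr17:27238784-27247983, both on the minus strand. Of the 150-base windows of the main Bax transcript, 5.32% also occur in Gm45808, which overlaps it on the same strand and had 0 counts in all libraries. Those 0 counts do not show whether Bax lost reads in this overlap of 915 bases.

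The 3 BH3-only members were all called, in different directions. Pmaip1, the gene of NOXA, gave 641, 550 and 472 counts in WT and 191, 221 and 214 counts in cKO-labelled libraries. Each cKO-labelled library lay well below each WT library. The level was 12.5 ± 1.61 CPM in WT and 4.94 ± 0.545 CPM in cKO-labelled libraries (SD, n = 3 each), which was 2.53-fold higher in WT. The log2 fold change was -1.34 (SE 0.13; edgeR quasi-likelihood test, Benjamini-Hochberg adjusted p = 2.53e-07), the only fall of at least 1 in size among the 10 members. Pmaip1 is annotated at chr18:66591604-66598636 on the plus strand.

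Bcl2l11, the gene of BIM, which binds all major pro-survival members, was at 25.7, 23.5 and 21.6 CPM in WT and 31.5, 34.2 and 32.7 CPM in cKO-labelled libraries. The groups did not overlap. Its mean rose from 23.6 ± 2.02 to 32.8 ± 1.35 CPM (SD, n = 3 each), with a log2 fold change of 0.47 (SE 0.075; edgeR quasi-likelihood test, Benjamini-Hochberg adjusted p = 5.98e-05). The gene is annotated at chr2:127967958-128004467 on the plus strand. Bid, which links death receptors to mitochondria once caspase-8 cuts its product, was at 17.3, 16.9 and 18.8 CPM in WT and 27.3, 24.2 and 22.6 CPM in cKO-labelled libraries. All cKO-labelled libraries were above all WT libraries, with cKO 1 the highest. The mean was 17.7 ± 0.995 CPM in WT and 24.7 ± 2.36 CPM in cKO-labelled libraries (SD, n = 3 each), and the log2 fold change was 0.48 (SE 0.086; edgeR quasi-likelihood test, Benjamini-Hochberg adjusted p = 0.000195). The 3' end of Bid (chr6:120868891-120893814, minus strand) overlaps the end of Bcl2l13 on the plus strand by 913 bases. The strand setting of the counting is not given in the sources used here, so reads from the overlap may be uncertain for both genes. Gm44260, with 2 to 28 counts per library, overlaps Bid by 2094 bases on the same strand, where reads could not be assigned by strand. Bcl2l13 had 1564 to 1982 counts per library and was not called (log2 fold change -0.09). The genes that overlap Bak1, Bcl2a1d and Bcl2 on the opposite strand gave fewer reads, with 38 to 145 counts for Ggnbp1 at Bak1, 1 to 13 for Gm10634 at Bcl2a1d and 2 to 18 for D630008O14Rik at Bcl2.

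Levels were compared between genes only after division by gene length, as CPM per kilobase. In WT the order of mean per-length levels was Mcl1 at 63.6 ± 3.54, Bax at 42.5 ± 2.98, Bak1 at 22.5 ± 0.779 and Bcl2l1 at 21.9 ± 0.339, followed by Bid at 4.98 ± 0.280, Pmaip1 at 4.57 ± 0.588 and Bcl2l11 at 2.94 ± 0.252 (SD, n = 3). Bcl2 at 1.89 ± 0.232, Bcl2a1d at 0.935 ± 0.431 and Bcl2a1b at 0.730 ± 0.168 were the lowest in WT on this per-length scale. Bak1 and Bcl2l1, Bid and Pmaip1, and the pair of Bcl2a1 copies were neighbours whose means lay within 1 SD of the more variable gene of each pair. In cKO-labelled libraries the per-length order began with Mcl1 at 134 ± 2.12, Bax at 39.8 ± 0.797, Bak1 at 22.2 ± 1.08 and Bcl2l1 at 17.7 ± 0.396, so Bak1 and Bcl2l1 no longer lay within their spread. Bid at 6.96 ± 0.665, Bcl2l11 at 4.09 ± 0.168, Bcl2a1b at 2.58 ± 0.491 and Bcl2a1d at 2.27 ± 0.324 came next on the per-length scale in cKO-labelled libraries, where the Bcl2a1 copies again lay within 1 SD. Bcl2 at 1.84 ± 0.0336 and Pmaip1 at 1.81 ± 0.200 closed that order, within 1 SD of Pmaip1. Pmaip1 thus moved from the sixth to the last place, and both Bcl2a1 copies moved above Bcl2.

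Shares of the summed per-length level of the 10 members were also taken within each library, with no test. Because Mcl1 is the largest term of the sum, another gene's share can fall while its own level does not differ. Mcl1 made up 38.2 ± 1.34% of the sum in WT and 57.4 ± 0.704% in cKO-labelled libraries (SD, n = 3 each). Bax, whose level was not called, went from 25.5 ± 1.14% to 17.1 ± 0.490% and Bcl2l1 from 13.2 ± 0.441% to 7.58 ± 0.153%, with the summed level itself larger in cKO-labelled libraries. Pmaip1 held 2.74 ± 0.276% in WT and 0.776 ± 0.0789% in cKO-labelled libraries. Of these 4 genes, Mcl1 alone held a larger share in cKO-labelled libraries. The products of Pmaip1 and Bcl2l11 both bind MCL1. The per-length ratio of Mcl1 to Pmaip1 was 12.6, 16.2 and 13.4 in WT and 79.0, 66.6 and 77.7 in cKO-labelled libraries. That ratio was several times larger in every cKO-labelled library than in any WT library. Mcl1 to Bcl2l11 gave 21.7 ± 0.993 in WT and 32.7 ± 0.832 in cKO-labelled libraries (SD, n = 3 each), also without overlap. The ratio of Mcl1 to Bcl2l1 was 2.90 ± 0.122 in WT and 7.57 ± 0.243 in cKO-labelled libraries, and that of Bcl2l1 to Bax was 0.517 ± 0.0374 and 0.443 ± 0.0170 (SD, n = 3 each). The ratio of Bax to Bak1 was 1.89 ± 0.0767 and 1.80 ± 0.122 and overlapped between groups. RNA levels do not give the amounts of these proteins.

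The 16 other genes of the family were read next, of which 11 passed the filter on low counts. In cKO-labelled libraries 1 was higher and 4 were lower, where 20.1% and 19.2% of all tested genes were, and the median log2 fold change was -0.09. Of the 4 other pro-survival genes, Bcl2l2, the gene of BCL-W, gave 3129, 3637 and 2589 counts in WT and 2545, 2225 and 2701 in cKO-labelled libraries. After scaling the groups did not overlap, and its log2 fold change was -0.25 (SE 0.053; edgeR quasi-likelihood test, Benjamini-Hochberg adjusted p = 0.000944). Bcl2l10 had 0 counts in all libraries. Bok, an effector-like gene, was at 11.1 ± 0.862 CPM in WT and 7.59 ± 0.417 CPM in cKO-labelled libraries (SD, n = 3 each), a log2 fold change of -0.55 (SE 0.115; edgeR quasi-likelihood test, Benjamini-Hochberg adjusted p = 0.00082).

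Of the 5 other BH3-only genes, Bmf, whose product is held at the cytoskeleton, was higher, at 3.34 ± 0.308 CPM in WT and 5.21 ± 0.436 CPM in cKO-labelled libraries (SD, n = 3 each). Its log2 fold change was 0.64 (SE 0.168; edgeR quasi-likelihood test, Benjamini-Hochberg adjusted p = 0.00528). Bad, which had the highest per-length level on that list, and Bbc3, the gene of the p53 target PUMA, were not called, with log2 fold changes of 0.13 (SE 0.078) and -0.07 (SE 0.121), and the sign of Bbc3 changed without WT 1 (0.02). Hrk had 0 counts in all libraries. Among the 6 BCL2-like genes, Bnip3 and Bnip3l, mitochondrial receptors of mitophagy, were the most abundant and were both lower. Bnip3 was at 591 ± 32.6 CPM in WT and 380 ± 5.74 CPM in cKO-labelled libraries, and Bnip3l at 260 ± 7.96 and 192 ± 5.63 CPM (SD, n = 3 each). Their log2 fold changes were -0.64 (SE 0.042) and -0.44 (SE 0.042), and the edgeR quasi-likelihood test gave Benjamini-Hochberg adjusted p = 8.54e-10 and 1.37e-07.

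**Figure D2:**
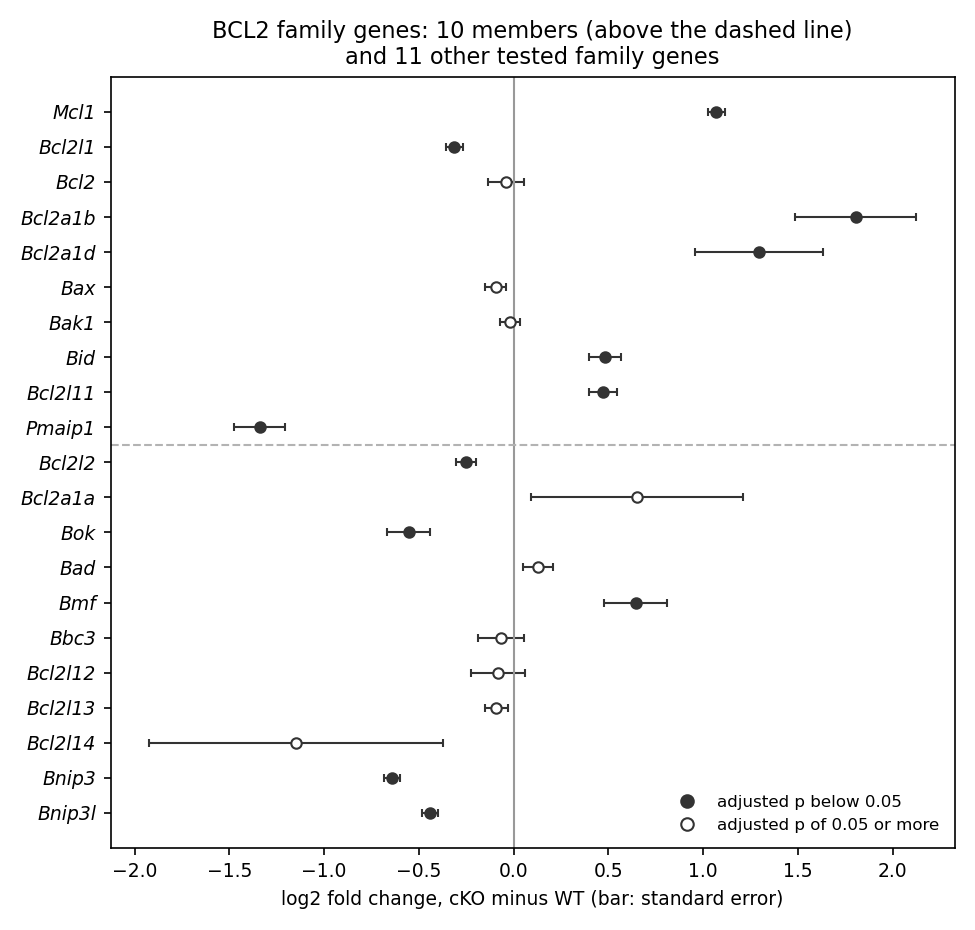
Log2 fold change of cKO-labelled against WT libraries (n = 3 each) for the 10 members above the dashed line and the 11 other tested family genes below it. Bars are standard errors and filled points have an adjusted p below 0.05 (edgeR quasi-likelihood test, Benjamini-Hochberg). Mcl1, Bcl2a1b and Bcl2a1d lie above 1 and Pmaip1 lies below -1. Bcl2l14, at 0 to 14 counts per library, also lies below -1, with the widest bar and no call.

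Outside the family, 41 genes of the pathway were read, of which 39 were tested, with 8 higher and 12 lower in cKO-labelled libraries, where 20.1% and 19.2% of all tested genes were. Over all family and pathway genes beyond the members, lower calls went from 16 to 21 with upper-quartile scaling. For the 39 genes, the median log2 fold change was -0.04. None of the 50 tested genes of the family and pathway lists beyond the 10 members was called with a log2 fold change of at least 1 in size in edgeR, DESeq2 or limma-voom, and 0 had both that size and an unadjusted p below 0.05. Bcl2l14 had the size alone, at -1.15 (SE 0.777), and was not called. On each list the gene with the highest per-length level is named, and any other gene in the next paragraphs was named after its values were seen, unless its list has 6 or fewer genes.

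Downstream of the mitochondria, 2 of the 7 tested genes of the apoptosome and caspases were higher and 0 were lower. Among all tested genes these shares were 20.1% and 19.2%. On this list, 3 and 1 were at an unadjusted p below 0.05, and DESeq2 and limma-voom gave the same counts of 2 and 0. The lower count was 1 with upper-quartile scaling and without WT 1, and the higher count was 3 with scaling by library size alone. Casp9, the initiator caspase of the apoptosome, was at 0.78 (SE 0.082) on the log2 scale. Casp9 gave 608, 620 and 517 counts in WT and 926, 884 and 1051 in cKO-labelled libraries, which did not overlap (edgeR quasi-likelihood test, Benjamini-Hochberg adjusted p = 4.9e-07). Cycs, the gene of cytochrome c and the highest per length, was not called at 0.16 (SE 0.063). On the list of inhibitors of apoptosis and their antagonists, 3 of 7 tested genes were higher, namely Birc3 at 0.48 (SE 0.057), Birc2 at 0.22 (SE 0.065) and Xiap, which lies on the X chromosome, at 0.21 (SE 0.049). Their products block caspases or attach ubiquitin in TNF signalling. The call of Birc2 was lost with upper-quartile scaling (0.16) and without WT 1, WT 2 or cKO 3 (0.20, 0.18 and 0.20). Htra2, an antagonist released from mitochondria and the highest per length, was not called at 0.15 (SE 0.065).

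In the death receptor arm, whose caspase-8 cuts BID, 3 of 8 tested genes were higher and 1 was lower, or 2 without cKO 1. The shares over all tested genes were 20.1% higher and 19.2% lower. Casp8 was at 31.5 ± 2.43 CPM in WT and 40.0 ± 0.607 CPM in cKO-labelled libraries (SD, n = 3 each), a log2 fold change of 0.35 (SE 0.066). The death receptor Fas was higher at 0.32 (SE 0.064) and the kinase Ripk1 at 0.23 (SE 0.048), whereas the TRAIL receptor Tnfrsf10b was lower at -0.48 (SE 0.054). Tnfrsf1a, the highest per length on this list, was flat at 0.01 (SE 0.041), and its sign changed with scaling.

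Of 4 outer membrane partners, 2 were lower, and all 4 were called lower with upper-quartile scaling. Among all 17146 tested genes, 19.2% (3285 genes) were lower with TMM, and 4294 genes were with upper-quartile scaling. Vdac1, a channel of the outer membrane and the highest per length, gave 16980, 20084 and 13837 counts in WT and 9618, 8915 and 10166 in cKO-labelled libraries, with no overlap. Its log2 fold change was -0.75 (SE 0.045; edgeR quasi-likelihood test, Benjamini-Hochberg adjusted p = 2.99e-10), and that of Vdac3 was -0.21 (SE 0.048). Among 4 genes of MCL1 turnover, 1 was lower, or 2 with upper-quartile scaling or without WT 3. Huwe1, an X-linked gene for a ubiquitin ligase of MCL1, was lower at -0.22 (SE 0.042), while the mitochondrial ligase Marchf5, the highest per length, was at 0.01 (SE 0.050), with a sign that changed with scaling.

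Transcriptional inducers of BH3-only genes and their close partners were lower for 8 of 9 tested genes, with a median log2 fold change of -0.25. Among all tested genes, 19.2% were lower and the median log2 fold change was 0.01. Cdkn1a, a p53 target and the highest per length, was at 490 ± 16.1 CPM in WT and 411 ± 11.3 CPM in cKO-labelled libraries (SD, n = 3 each), a log2 fold change of -0.25 (SE 0.039). The stress factor Ddit3, known to induce Bcl2l11, fell by 0.72 (SE 0.081), and Foxo3, another inducer of Bcl2l11, fell by 0.49 (SE 0.042). Atf4, which acts upstream of Ddit3, fell by 0.38 (SE 0.046) and Trp53, the gene of p53, an inducer of Pmaip1, Bbc3 and Bax, fell by 0.25 (SE 0.046). Jun was the tested gene not called, at 0.12 (SE 0.054), although scaling by library size alone called it higher at 0.14. Pmaip1 was lower and Bcl2l11 higher in the same libraries, and no link between these genes was tested.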

How the data were processed

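Stimulated primary osteocytes of 3 WT and 3 cKO-labelled libraries were compared, with groups taken from the sample labels. The authors prepared libraries with a directional kit, aligned reads to GRCm39 with HISAT2 2.0.5 and deposited raw counts per gene from featureCounts 1.55.0-p3, as given in the submitters' processing notes, although the methods name another featureCounts version and also RSEM, which divides shared reads among copies. The deposited table also gives a gene length in bases, of another unit than counts. No batch is named in the labels. Counts from 1 to 10 were even in 63.4 to 65.7% of cases, so both mates of a pair may have been counted. The floor of 3 counts reflects counting error alone, because the library kit is not described as tagging molecules. The mean chi-square per gene between libraries of a group was 4.87 to 14.2, against about 1 for sampling noise, or 2 if both mates were counted, so no pair agreed within that noise.

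Genes were filtered with filterByExpr, scaled with TMM and tested with the quasi-likelihood test of edgeR 4.0.16 in R 4.3.3, without robust estimation, and called at a Benjamini-Hochberg adjusted p below 0.05. CPM are counts per 1000000 TMM-scaled counts, and per-length levels are CPM per kilobase of the deposited gene length. Adjustment ran over all tested genes. Alternatives used other scalings and filters, DESeq2 1.42.0, limma-voom (limma 3.58.1), robust estimation, a replicate block, halved counts and leaving out each library. Windows of 150 bases and the printed sequences came from GENCODE M39. All 10 members were named. On each further family or pathway list, the gene with the highest per-length level was named. Any called gene there with a log2 fold change of at least 1 in size was also to be named. Genes of lists of up to 6 genes could be named as well. On marker lists, the most abundant gene and genes at 3 or fewer counts in every library were named. Any other gene, such as Casp9, Birc3, Casp8 or Ddit3, was named after its values were seen. Values of some single genes on these lists are not reported here. The members and lists were chosen with earlier results of these data known.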

Additional observations from a re-analysis of the deposited data

How the results depend on the processing

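The 7 calls among the 10 members kept their direction and their side of the threshold under every alternative run, other than the stricter limit on fold change. The largest adjusted p of any of these calls was 0.0298, for Bcl2a1d without WT 1. With a log2 fold change of at least 1 required, counts of higher and lower calls were 1124 and 796 over all genes, 3 and 1 over the members, and 0 and 0 over the other family and pathway genes. Upper-quartile scaling called 2799 genes higher and 4294 lower, against 3445 and 3285 with TMM, and added Bax to the lower members at -0.16. It moved the per-length levels of Bcl2l1 to 22.5 in WT and 17.2 in cKO-labelled libraries, and those of Bcl2, Mcl1 and Bax in cKO-labelled libraries to 1.80, 130.45 and 38.9. Without division by gene length, the shares in WT and cKO-labelled libraries were 42.5% and 61.9% for Mcl1, 13.1% and 8.52% for Bax, 19.7% and 10.98% for Bcl2l1, and 2.44% and 0.669% for Pmaip1. Among the other named genes, Bcl2l13 was called lower with upper-quartile scaling, Cycs and Jun were called higher with library size alone, and Birc2 lost its call as given above. Counts of lower calls on pathway lists moved by over 1.5 times with upper-quartile scaling for outer membrane partners (2 to 4), MCL1 turnover (1 to 2) and the apoptosome and caspases (0 to 1). They also moved without WT 1 for the apoptosome and caspases (0 to 1), without WT 3 for MCL1 turnover (1 to 2), without WT 3 or cKO 1 for inhibitors of apoptosis (0 to 1) and without cKO 1 for the death receptor arm (1 to 2). With library size alone, higher calls among the inducers went from 0 to 1. Signs of uncalled genes changed in a few settings. Leaving out 1 library gave log2 fold changes of -0.14 to 0.025 for Bcl2, -0.042 to 0.022 for Bak1, -0.15 to 0.025 for Bbc3, -0.019 to 0.023 for Tnfrsf1a and -0.032 to 0.031 for Marchf5. Scaling by library size alone gave 0.0022 for Bak1. The DESeq2 size factors, upper-quartile scaling and DESeq2 gave -0.0048, -0.063 and -0.0048 for Tnfrsf1a and -0.00078, -0.059 and -0.00078 for Marchf5. The cause was not tested. With a replicate block, 3298 genes were higher and 3098 lower, and 5 members were higher and 2 lower as without it. Libraries that share a number did not deviate together (correlations of -0.0055, 0.00228 and -0.0103), and the block changed no call of a member. Low counts limit the Bcl2a1 copies, whose standard errors were the largest among the members.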
